A study of Mus musculus with 6 samples.

Results

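The clustered replication-dependent histone genes were examined in mouse chondrocytes that expressed either a mutant or a wild-type histone H3.3. They were taken as every gene of the count table whose symbol begins with Hist1h, Hist2h, Hist3h or Hist4h, which gave 69 of 35976 genes. By type these were 6 genes of the linker histone H1, 19 of H2A, 19 of H2B, 12 of H3 and 13 of H4. In the mouse genome build GRCm38, which is also called mm10, 55 of them lie on chromosome 13, 10 on chromosome 3, 3 on chromosome 11 and 1 on chromosome 6. RNA came from the hind-limb articular cartilage of embryos at day 18.5 (strain C57BL/6 x 129S4/SvJae), from chondrocytes expanded on plastic for 16 population doublings. Both groups carried a doxycycline-inducible H3.3 transgene and received 2 µg/ml doxycycline. In H3K9M cells (3 libraries, replicates 1, 3 and 5) the transgene has methionine for lysine at residue 9 and the labels describe suppressed methylation there, and in H3WT cells (3 libraries, replicates 1, 2 and 4) it is the unmutated protein. The labels do not say which promoter or cell type drives the transgene, or whether the libraries of a group came from separate embryos, so p-values measure the spread between these libraries only.

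Replication-dependent histone genes supply the bulk histones that package newly copied DNA, and cells transcribe them mainly in S phase. Their mRNAs differ from other mRNAs at the 3′ end. The primary transcript is cut just after a short stem-loop, the stem-loop is bound by the protein Slbp, and no poly(A) tail is added. Some of these genes also give longer transcripts that read past the stem-loop to a poly(A) site, a form known from differentiating and non-dividing cells. The libraries here were made from polyadenylated RNA, so what was counted is the polyadenylated share of these transcripts together with whatever else passed the selection, and levels below are not levels of total histone mRNA.

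The stem-loop was read from the GENCODE M21 transcripts of the members, because it separates the family from other genes and decides where the processed mRNA ends. Each line gives 26 bases, 5′ to 3′, with the 2 arms of the stem in capitals, the 4-base loop between them and 5 bases of flank on each side. The first is that of the H1 gene with the most reads (chr13:23739507-23739532, plus strand), the second of the leading H2A gene (chr11:58955167-58955192, plus strand) and the third of an H3 gene (chr13:23745042-23745067, minus strand). The last 3 are H4 genes, on chr13:23531453-23531478 (plus strand), chr13:22040961-22040986 (minus strand) and chr13:23757361-23757386 (plus strand).
Hist1h1c: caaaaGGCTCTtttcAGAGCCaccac
Hist3h2a: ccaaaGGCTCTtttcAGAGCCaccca
Hist1h3c: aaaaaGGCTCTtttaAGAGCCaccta
Hist1h4h: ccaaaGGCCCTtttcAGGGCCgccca
Hist1h4i: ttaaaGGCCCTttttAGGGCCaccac
Hist1h4b: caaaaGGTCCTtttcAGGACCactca

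The histone stem-loop consensus was found in the first 300 bases after the stop codon in 45 of the 52 members whose annotation holds a 3′ untranslated region long enough to contain it (86.5%), against 10 of 20832 other protein-coding genes (0.048%), searched on the sense strand only. One of those 10 was H2afx, the gene of the variant H2A.X. The form of stem and loop in the lines for Hist1h1c and Hist3h2a was shared by 25 members, none of them an H4 gene. That of Hist1h4h was shared by 7 members, all H4 genes, and all 12 H4 genes with a match had a stem sequence that no other type had. The poly(A) signal AATAAA stood in the last 50 bases of 14 of 67 members with a coding sequence (20.9%), against 59.3% of 21810 other protein-coding genes. Among those 14 were Hist1h1c, Hist3h2a and Hist2h2be. These matches describe the annotated transcripts and show no use of a site.

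The H3 genes are shown by their first 30 coding bases, with the codon of lysine 9 in capitals, since this is the residue changed in the transgene. The lines are from chr13:23575802-23575831 (plus strand), chr3:96246886-96246915 (plus strand), chr1:180811897-180811926 (minus strand) and chr11:116023980-116024009 (minus strand). H3f3a and H3f3b, outside the clusters, encode H3.3 itself.
Hist1h3d: atggctcgtactaagcagaccgctcgcAAG
Hist2h3c1: atggcccgtacgaagcagactgcccgcAAG
H3f3a: atggctcgtacaaagcagactgcccgcAAA
H3f3b: atggcccgaaccaagcagaccgctaggAAG

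All 12 clustered H3 genes had the codon AAG there, and the 9 Hist1h3 genes shared the line of Hist1h3d base for base. Genes of the types H3, H4, H2B and H2A were close to others of their type. Coding sequences of the most common length of a type were 93.7% to 99.8% identical among H3 genes and 85.3% to 100% among H4 genes. They were 82.9% to 99% identical among H2B genes and 77.6% to 100% among H2A genes. That length was held by 11 of 12 H3, 13 of 13 H4, 14 of 18 H2B and 15 of 18 H2A coding genes. The 6 H1 coding sequences all differed in length and were not compared. Of the 50-base stretches of a member's transcript, a median of 45.9% occurred in no other gene's transcript, and 35 members had under 50% unique. For 6 members, Hist2h2aa1 and Hist2h2aa2 among them, no 50-base stretch was unique, yet 360 reads were assigned to these 6. A stretch also counted as shared where another gene is annotated over the same bases on either strand. Hist2h2bb, also among the 6, shared stretches only with Gm20628 and Gm42743, which overlap its own exon, and with no other histone member. How multi-mapping reads were counted is not given in the sources used here, so the split of reads between near-identical members is uncertain. Exon overlap adds to this, though part of it is already in these shares. On the opposite strand 22 members share exon bases with another gene, and the strand setting is likewise not given. On the same strand 7 do, whatever that setting. These include the tested genes Hist3h2a (with Trim17), Hist2h2aa1 (with Gm20634), and Hist1h2be and Hist1h1e, which overlap each other, so their counts are uncertain.

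Histone reads were few. The 69 genes together held 10722 reads in the 6 libraries, out of 15113675 to 19606082 counts per library. The histone share of counts was lowest in H3WT replicate 1, at 0.00548% (Wilson 95% interval 0.00515% to 0.00583%), and highest in H3WT replicate 2, at 0.0138% (0.0132% to 0.0143%). The 3 H3K9M libraries lay between them, at 0.0107%, 0.0097% and 0.0115% for replicates 1, 3 and 5, and H3WT replicate 4 was at 0.00769%. These intervals cover counting error only. They are narrower than the distance between any pair of H3WT libraries.

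Reads were held by few members. The 6 genes with the most reads, Hist1h2bc, Hist1h1c, Hist3h2a, Hist1h2bg, Hist1h4i and Hist2h2be, took 83.1% of all histone reads, and Hist1h2bc and Hist1h1c alone took 56.5% to 76.6% of those of a library. At the other end 5 genes had no read in any library, namely Hist1h1t, Hist1h2aa, Hist1h2ao, Hist1h3h and Hist4h4 (listed after their values were seen), and 25 of 69 had 10 reads or fewer in total. A read was present in every library for 14 members, and 6 had at least 10 reads in each. Per kilobase of transcript the order was Hist1h2bc (32 CPM per kb, mean of 6 libraries), Hist1h1c (19.4), Hist1h2bg (5.2), Hist1h2al (3.7), Hist1h4i (3.3), Hist3h2a (3.05) and Hist2h2aa1 (2.47). CPM gives counts relative to library size, with libraries scaled by the trimmed mean of M values.

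**Figure D1:**
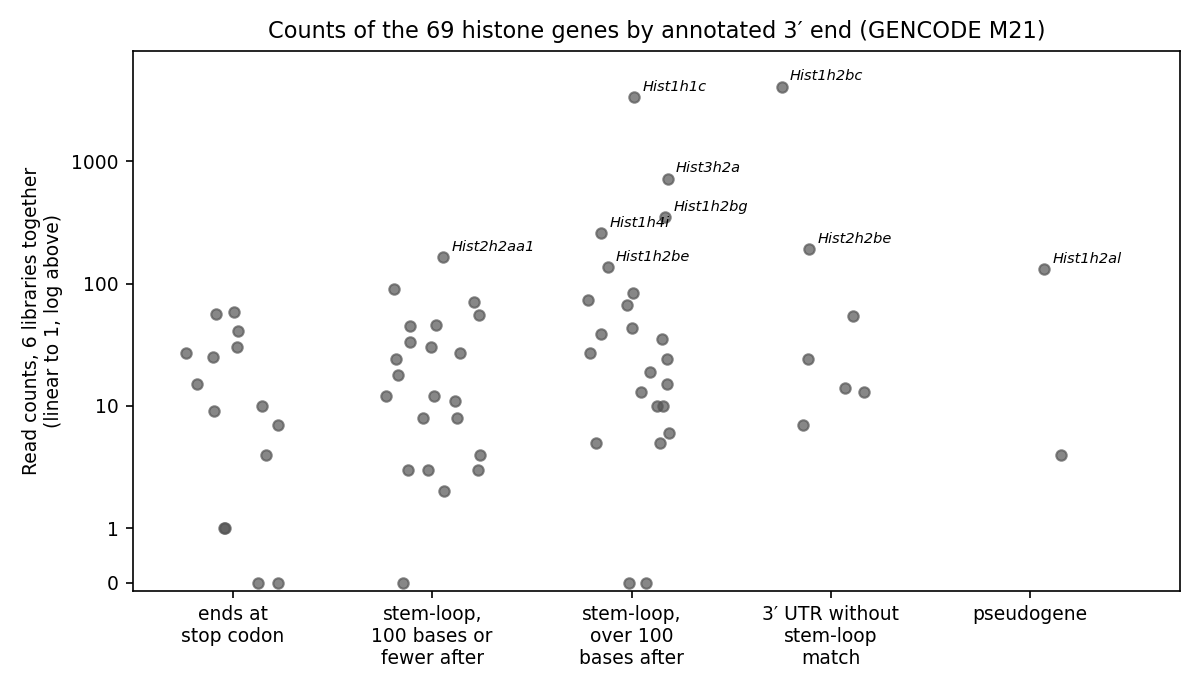
Read counts of each of the 69 histone genes summed over the 6 libraries (y axis, linear to 1 and logarithmic above), by how the annotated 3′ end relates to the stem-loop (x axis, 5 classes, points spread sideways for legibility). Hist1h2bc and Hist1h1c hold more reads than any other gene, and no gene annotated only to its stop codon exceeds 100 reads.

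Members were sorted by annotated 3′ end after their counts had been seen, so the sorting is a description. The 23 members whose annotated transcript runs more than 100 bases past the stem-loop held 49.1% of histone reads. Hist1h1c alone gave 3321 of their 5264 reads. The 7 members with a 3′ untranslated region and no stem-loop match held 40.7%, and Hist1h2bc alone gave 4066 of their 4368 reads. The 22 whose transcript ends within 100 bases after the stem-loop held 6.25%, the 15 annotated only to the stop codon 2.66%, and 2 pseudogenes 1.26%. Pseudogenes aside, the median member of the classes in this order had 27, 24, 15 and 10 reads. Of the 12 members that passed the filter on low counts, 10 were in the first or second of these classes. Length and uniqueness move with the classes. The median share of unique 50-base stretches was 75.4% in the class running past the stem-loop, 36.9% in the class ending near it and 14.2% where annotation ends at the stop codon, and the median level per length was 0.195, 0.311 and 0.188 CPM per kb. The part of length and uniqueness in these counts was not tested.

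The leading 2 genes illustrate both longer forms. Hist1h1c (chr13:23738808-23740367, plus strand, 1 exon) is annotated for 840 bases beyond its stem-loop and carries AATAAA near its end. Hist1h2bc has 2 exons. The first (chr13:23684199-23684621) ends 9 bases after the stop codon at chr13:23684610-23684612, and the transcript continues in a second exon at chr13:23692176-23692908. That spliced transcript holds no stem-loop match. Its sequence is 69.4% unique, and 220 other genes share at least 1 stretch of 50 bases with it, so some of its reads may be shared.

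Across the 12 members with enough reads to test, no difference between H3K9M and H3WT passed the test. With edgeR's quasi-likelihood test and Benjamini-Hochberg adjustment over 13761 genes, 0 of the 12 had an adjusted p under 0.05, where 0% of all tested genes did. At an adjusted p under 0.10 the count was again 0 of 12, against 0.00727% of all tested genes. Nor did any of the 12 have an unadjusted p under 0.05, where 12.2% of all tested genes did, and the smallest was 0.148. Limma-voom called 0 of the 12 as well, with 0 at an unadjusted p under 0.05 (0% and 11.9% of all tested genes). In none of the 12 did the values of the groups stand apart, whereas 19.4% of all tested genes had non-overlapping values. The log2 fold change of H3K9M over H3WT was above 0 in 8 members and below 0 in 4, with a median of 0.22, where 49.6% of all tested genes were above 0 and the median of all was -0.003. The 12 passed a filter that 68.8% of genes with a read passed and that 52 other histone genes with a read did not. They are mostly, but not simply, the abundant end of the family. Hist1h2al (131 reads) and Hist2h2aa2 (70) were left out, while Hist1h1d (67) was tested. The members whose values did stand apart, 6 with H3K9M higher and 1 lower, were all among those not tested.

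**Figure D2:**
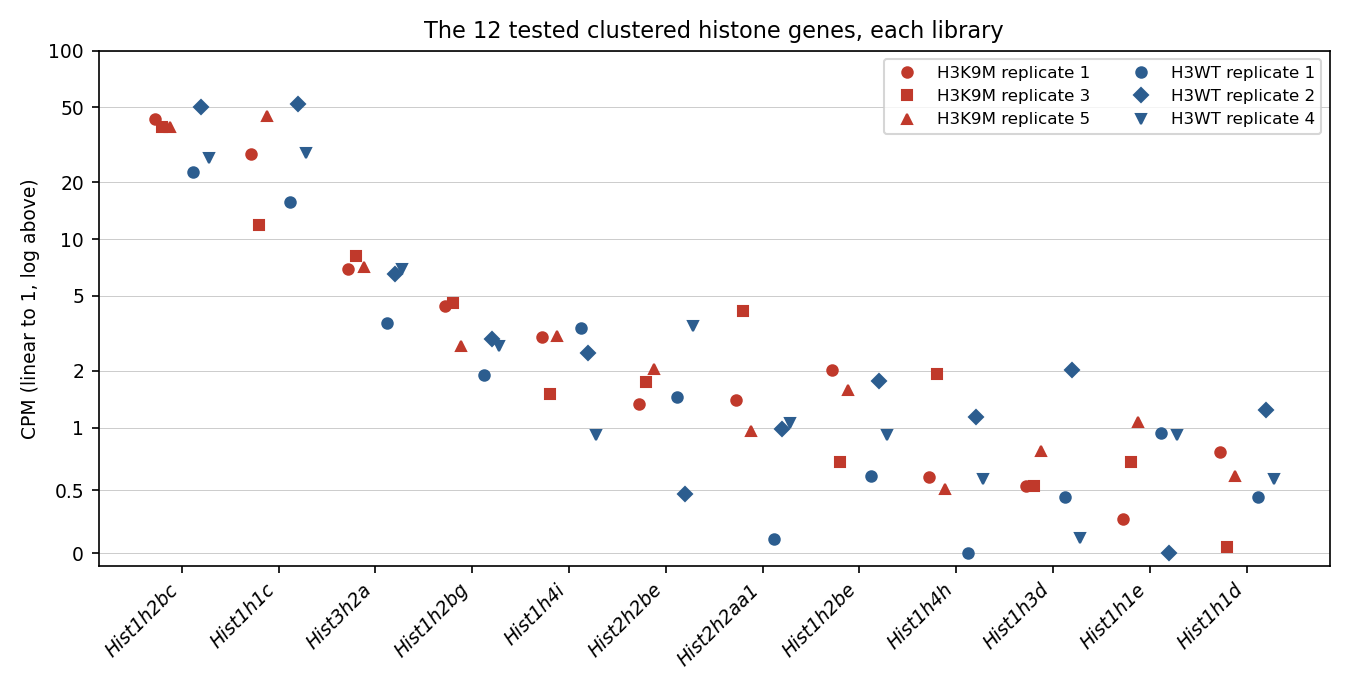
CPM of the 12 tested histone genes (x axis, ordered by level) in each library (y axis, linear to 1 and logarithmic above), with H3K9M libraries in red and H3WT libraries in blue. In every gene the red and blue points overlap, and H3WT replicate 2 is the highest library for Hist1h2bc and Hist1h1c.

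H1 genes encode the linker histones that bind DNA between nucleosomes, and here they were mostly Hist1h1c, which held 93.7% of H1 reads. Hist1h1c (histone H1.2) had 28.3, 11.9 and 44.9 CPM in H3K9M replicates 1, 3 and 5, and 15.8, 52.2 and 28.6 CPM in H3WT replicates 1, 2 and 4. The libraries of each group span more than a 3-fold range and overlap across it, with H3K9M replicate 3 lowest and H3WT replicate 2 highest. Its log2 fold change was -0.18 (SE 0.58, edgeR adjusted p 0.933). Leaving out H3WT replicate 2 turned it to 0.37. Summed over the 6 H1 genes, levels were 30.6, 12.7 and 47 CPM in H3K9M and 18.2, 55.2 and 30.5 CPM in H3WT. The ratio of 0.869 became 1.24 without H3WT replicate 2. With each library left out in turn, the log2 ratio of -0.20 ran from -0.68 (without H3K9M replicate 5) to 0.31 (without H3WT replicate 2).

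The remaining H1 genes had few reads. Hist1h1d (H1.3) and Hist1h1e (H1.4) were tested, with log2 fold changes of -0.65 (SE 1.13) and 0.14 (SE 1.3), and neither passed. Hist1h1b (H1.5), which fell short of the filter, had 5, 0 and 4 reads in H3K9M and 11, 33 and 6 in H3WT. It was the only 1 of the 64 members with a read whose H3K9M values all lay below all H3WT values, and 6.34% of all genes with a read did so. Hist1h1t, a testis-specific H1 gene, had no read in any library.

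H2A was the only type whose summed level did not overlap between the groups. For single genes rather than sums, 19.4% of all tested genes had non-overlapping values. H2A pairs with H2B in the outer dimers of the nucleosome. The 19 H2A genes together had 14, 18.7 and 11.2 CPM in H3K9M replicates 1, 3 and 5, against 5.05, 8.51 and 8.9 CPM in H3WT replicates 1, 2 and 4 (14.6 ± 3.77 and 7.49 ± 2.12, SD, n = 3 each). The ratio was 1.95, and 2.1 without H3WT replicate 2. With each library left out in turn, the log2 ratio of 0.96 ran from 0.75 (without H3WT replicate 1) to 1.125 (without H3K9M replicate 5). No test was made of a sum over chosen members. With 1 gene, Hist1h2al, left out of the sum, the values were 9.78, 15.8 and 10.7 CPM against 5.05, 8.51 and 8.9 CPM, still without overlap, an alternative chosen after seeing the data. The 7 markers of macrophages and blood, summed, were also without overlap, at 8.04, 16.5 and 9.13 CPM in H3K9M against 6.29, 3.84 and 4.59 CPM in H3WT, with H3K9M replicate 3 highest as for H2A. Of these, 3 were tested and none passed, and Ptprc, Adgre1 and Hbb-bs were at 0 in all libraries. No single marker was without overlap. Cd68 had 2.61, 12.8 and 4.745 CPM in H3K9M and 0.6175, 3.37 and 2 CPM in H3WT, while Csf1r and Lyz2 were highest in H3WT replicate 1. The part of these markers in the H2A values was not tested.

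The separation was not carried by the leading H2A gene. Hist3h2a (chr11:58954685-58956830, plus strand), which held 59.1% of H2A reads, had 6.9, 8.17 and 7.14 CPM in H3K9M and 3.59, 6.54 and 6.95 CPM in H3WT, overlapping only by H3K9M replicate 1 and H3WT replicate 4. Its log2 fold change was 0.38 (SE 0.34, edgeR adjusted p 0.701). The other 18 H2A genes together had 7.1, 10.5 and 4.03 CPM in H3K9M and 1.46, 1.97 and 1.94 CPM in H3WT. Hist2h2aa1 (chr3:96245497-96246082, plus strand) had 21, 86 and 19 reads in H3K9M and 2, 19 and 18 in H3WT, so that H3K9M replicate 3 was high and H3WT replicate 1 low. Its log2 fold change of 1.59 was the largest of the 12 (SE 1, edgeR adjusted p 0.55) and was 0.73 without H3K9M replicate 3. Its near copy Hist2h2aa2 (chr3:96239749-96240276, minus strand) was not tested and had 10, 36 and 10 reads in H3K9M and 2, 4 and 8 in H3WT, without overlap. With no unique stretch of 50 bases in either, these 2 are not separate measurements.

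Hist1h2al had reads in the 3 H3K9M libraries and in no H3WT library. There were 63, 58 and 10 reads in H3K9M replicates 1, 3 and 5 (4.22, 2.8 and 0.51 CPM) and 0 in each H3WT library, where a count of 0 allows up to 3 reads (counting error only). Against a floor of 3 reads per H3WT library (mean 0.167 CPM) it was at least 15-fold higher in H3K9M. That bound rests on the replicates with most reads, and it was at least 9.92-fold without H3K9M replicate 1. The edgeR filter works library by library and left it out, with 0 reads in each H3WT library and 10 in H3K9M replicate 5. Its 131 reads in all exceeded the 67 of the tested Hist1h1d. DESeq2 called it, the only 1 of 34 members to which DESeq2 gave an adjusted p (adjusted p 0.000203), where 2.38% of all genes with an adjusted p were called. In edgeR on every gene with a read its adjusted p was 0.0595, and 0.18% of those genes passed 0.05.

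Despite its symbol, Hist1h2al is annotated as a processed pseudogene in GENCODE M21 and as a transcribed pseudogene (H2af-ps2) in RefSeq GRCm38.p6. It lies at chr13:51202727-51203065 (minus strand) and overlaps the gene Gm44341 on the opposite strand. Only 32.4% of its 50-base stretches are unique. Markers of skeletal muscle were also unequal between libraries. Summed CPM of the 7 muscle markers was 140.1, 202 and 19.5 for H3K9M replicates 1, 3 and 5. For H3WT replicates 1, 2 and 4 it was 31.1, 11.1 and 25.8. Of these markers 3 of 7 were tested, and Myf5 was at 0 in all libraries. Myod1, the myogenic transcription factor, had 19.5, 57 and 4.29 CPM in H3K9M and 0, 1.04 and 0 CPM in H3WT. Des, the muscle intermediate filament, had 81, 98 and 8.78 CPM in H3K9M and 4.88, 6.8 and 1.71 CPM in H3WT. H3K9M replicate 5 was the lowest of its group for Hist1h2al, for the H2A sum and for the summed muscle markers. It still lay above every H3WT library for Myod1, Des, Myog and Ttn, with only 4 reads of Myog and 5 of Ttn. It did not for Acta1, at 5.97 CPM against 26.2, 3.27 and 24 CPM in H3WT replicates 1, 2 and 4. Ckm was at 0 CPM in H3K9M replicate 5. The part of the muscle genes in the Hist1h2al and H2A values was not tested.

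**Figure D3:**
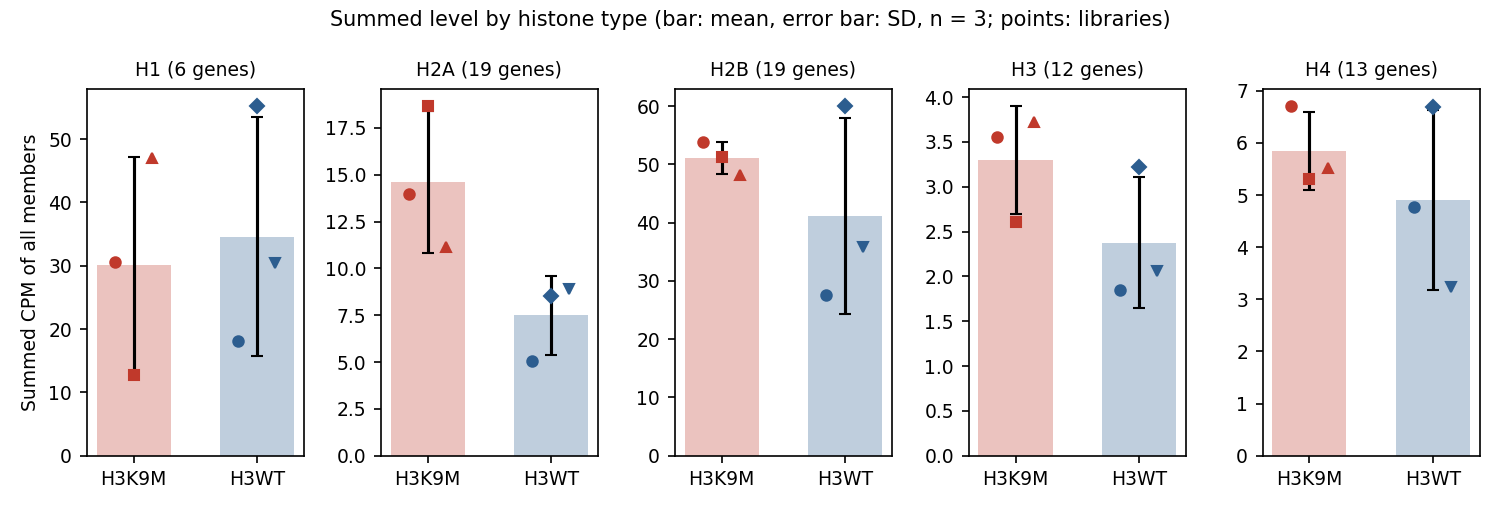
Summed CPM of all members of each histone type (y axis, a separate linear scale from 0 in each panel) in H3K9M and H3WT. Bars are means, error bars SD (n = 3), and points are libraries: circles for replicate 1 of either group, a square and an upward triangle for H3K9M replicates 3 and 5, a diamond and a downward triangle for H3WT replicates 2 and 4. In the H2A panel alone all H3K9M points (11.2 to 18.7) lie above all H3WT points (5.05 to 8.9).

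H2B genes held 47.2% of histone reads, and Hist1h2bc held 80.3% of those. Hist1h2bc had 43.7, 39.3 and 39.4 CPM in H3K9M replicates 1, 3 and 5, and 22.7, 50.1 and 27 CPM in H3WT replicates 1, 2 and 4. The H3K9M libraries lay close together (40.8 ± 2.51, SD, n = 3) and the H3WT libraries apart (33.3 ± 14.7), with H3WT replicate 2 above all others and the other two H3WT libraries below all others. The log2 fold change was 0.29 (SE 0.28, edgeR adjusted p 0.727). Without H3WT replicate 2 it was 0.72 (SE 0.17, edgeR p 0.00276, adjusted p 0.106), which does not pass.

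Hist1h2bg (chr13:23571396-23572013, plus strand), with a stem-loop and 155 annotated bases beyond it, had 4.42, 4.59 and 2.7 CPM in H3K9M and 1.91, 2.96 and 2.71 CPM in H3WT. Its log2 fold change was 0.63 (SE 0.46, edgeR adjusted p 0.62), and the groups overlap through H3K9M replicate 5. Hist2h2be, with 2192 annotated bases after the stop codon, no stem-loop match and every 50-base stretch unique, ranged from 0.467 to 3.48 CPM within H3WT alone (log2 fold change -0.07, SE 0.81). Hist1h2be had a log2 fold change of 0.37 (SE 0.79). Several H2B genes short of the filter peaked in H3K9M replicate 3. There were 28 reads of Hist1h2bq there against 3 to 8 elsewhere, and 27 of Hist1h2bl against 0 to 4. No 50-base stretch of Hist1h2bq is unique, and 17.2% of those of Hist1h2bl are, so the assignment of these reads is uncertain. Hist1h2bf and Hist1h2bh instead peaked in H3WT replicate 2, with 27 and 21 reads against at most 6 elsewhere. The 19 H2B genes summed to 53.8, 51.3 and 48.2 CPM in H3K9M and 27.5, 59.9 and 35.8 CPM in H3WT, a ratio of 1.24 that was 1.61 without H3WT replicate 2.

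H3 genes had the fewest reads, 310 in all or 2.89% of histone reads. Their sum was 3.55, 2.61 and 3.72 CPM in H3K9M and 1.85, 3.22 and 2.06 CPM in H3WT (ratio 1.39, and 1.68 without H3WT replicate 2), and the groups overlapped. Only Hist1h3d was tested, with 8, 11 and 16 reads in H3K9M and 8, 39 and 2 in H3WT. Its log2 fold change was -0.46 (SE 1.11, not past the test), turning to 1.13 without H3WT replicate 2. Hist1h3b had 10, 28 and 4 reads in H3K9M and 2, 2 and 0 in H3WT, and Hist1h3i, chosen after its values were seen, had 8, 8 and 11 against 1, 0 and 2. Both were short of the filter, and neither is called by DESeq2. Hist1h3c and Hist2h3c1 each had 0 reads in 1 library of either group and at most 15 in any library. The clustered H3 genes encode replication-coupled H3, and their coding bases differ from the H3.3 genes, but gene counts do not show which sequence was read.

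H4 genes, whose protein forms the core of the nucleosome with H3, held 5.47% of histone reads, and Hist1h4i held 44.3% of these. Hist1h4i (chr13:22040636-22041362, minus strand) had 3.01, 1.5 and 3.06 CPM in H3K9M and 3.37, 2.49 and 0.943 CPM in H3WT (fitted log2 ratio 0.15, SE 0.64). Hist1h4h had 9, 40 and 10 reads in H3K9M and 0, 22 and 10 in H3WT (log2 fold change 0.81, SE 1.28). Neither passed the test, and each changed sign when a single library was left out. Hist1h4b, Hist1h4j and Hist1h4k were each at 0 in at least 2 libraries, while reaching 26, 21 and 22 reads in others. The 13 H4 genes summed to 6.7, 5.32 and 5.51 CPM in H3K9M and 4.77, 6.69 and 3.24 CPM in H3WT, a ratio of 1.19 with overlap.

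**Figure D4:**
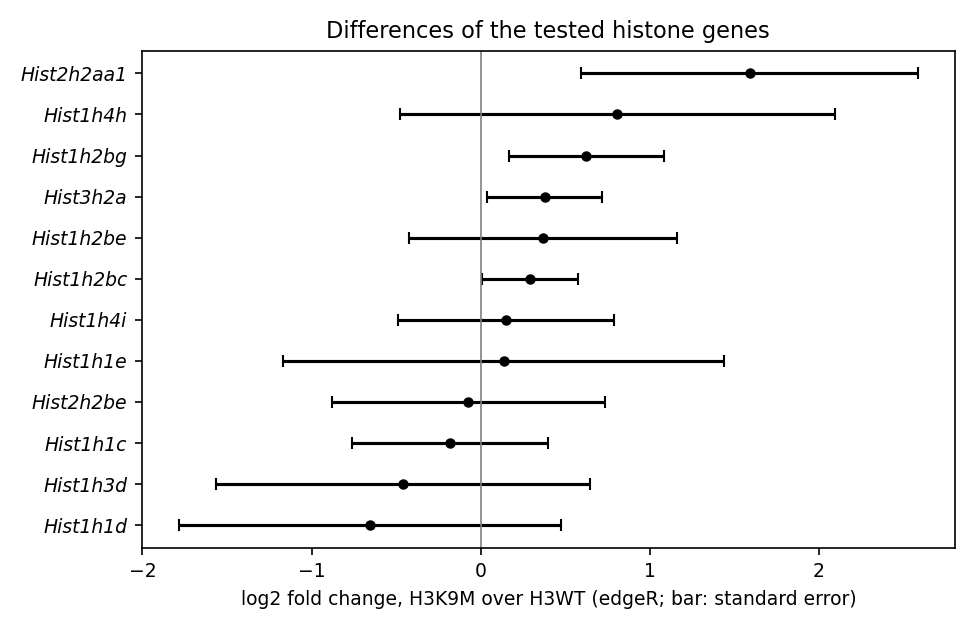
Log2 fold change of H3K9M over H3WT (x axis) for the 12 tested histone genes (y axis), with bars of 1 standard error from the edgeR fit. Standard errors run from 0.28 for Hist1h2bc to 1.3 for Hist1h1e, and no gene passed the test.

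All 69 members together summed to 108.6, 90.6 and 115.6 CPM in H3K9M and 57.4, 133.5 and 80.5 CPM in H3WT. The ratio was 1.16, and 1.52 without H3WT replicate 2, the highest library. More members had a read in each H3K9M library than in any H3WT library. In H3K9M replicates 1, 3 and 5 the numbers were 42, 46 and 46 of 69. In H3WT replicates 1, 2 and 4 they were 33, 33 and 32. H3K9M replicate 1 had the fewest counts of all libraries, and H3K9M replicates 3 and 5 had the most. The part of depth in these numbers was not tested, and members that share sequence are not separate detections. Over 3 reads were held by 33, 28 and 36 members in H3K9M and 21, 24 and 25 in H3WT. Among the 52 members with a read that were not tested, 57.7%, 65.4% and 65.4% had a read in the H3K9M libraries and 42.3%, 42.3% and 38.5% in the H3WT libraries. Of 6181 other genes that had a read and were not tested, the shares were 34.9%, 47.5% and 48.1% in H3K9M and 32.4%, 21.2% and 42.5% in H3WT, which overlap. This count of members was looked at after the values were seen and has no test.

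Read gene by gene, few members stood apart. Among the 64 members with a read, 6 had all H3K9M values above all H3WT values, and 8.54% of all genes with a read did so, which is near the same share. These 6 were Hist1h2al, Hist2h2aa2, Hist1h3b and, named after their values were seen, Hist1h3i, Hist1h2ag and Hist2h2bb. Hist2h2bb had 4, 15 and 6 reads against 0 in each H3WT library, and Hist1h2ag 4, 1 and 3 against 0. No 50-base stretch of Hist2h2bb is unique, but the only genes sharing them overlap its exon, Gm42743 on the same strand and Gm20628 on the other. Of the 50-base stretches of Hist1h2ag 21.1% are unique, and of those of Hist1h3i 12.4%, so the assignment of these reads is uncertain. At an unadjusted p under 0.05 DESeq2 listed 3 members, Hist1h2al, Hist2h2bb and Hist1h3b, where 9.62% of all genes were listed.

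Genes that control histone mRNA were read from a list of transcription and 3′-end processing factors. Of 28 symbols 26 were found and tested, 0 passed the adjusted threshold in edgeR, and 0 higher and 1 lower had an unadjusted p under 0.05 (6.42% and 5.77% of all tested genes). The symbols not found were Mizf, an older name of Hinfp, which was tested, and Symplk. The latter may be a misspelling of Sympk, which was not looked up, so neither shows a gene to be absent. There were 11 above and 15 below 0, with a median log2 fold change of -0.04. Slbp, which binds the stem-loop, had 39.3, 40.1 and 38.9 CPM in H3K9M and 51.9, 45.7 and 34.6 CPM in H3WT (fitted log2 ratio -0.16, SE 0.17). Npat, the coactivator that drives histone transcription in S phase, had a log2 fold change of -0.24 (SE 0.16). Casp8ap2 (FLASH), needed for 3′-end cleavage, had 29.1, 30.7 and 32.8 CPM in H3K9M and 36.4, 40.9 and 33.8 CPM in H3WT, with all H3K9M libraries below all H3WT libraries (log2 fold change -0.26, SE 0.15, edgeR adjusted p 0.5). E2f1, a transcription factor of S-phase entry, was the 1 gene of the list with an unadjusted p under 0.05. It had 36.5, 22.3 and 37.9 CPM against 59.9, 37.7 and 54.8 CPM (log2 fold change -0.66, SE 0.25, edgeR adjusted p 0.361). Ncbp2, a subunit of the cap-binding complex, and Lsm1, of the complex that binds the ends of decaying mRNA, had log2 fold changes of 0.29 (SE 0.13) and 0.42 (SE 0.18). Neither passed, with edgeR adjusted p of 0.42 and 0.411, although in both all H3K9M libraries lay above all H3WT libraries. In the whole list the values of the groups stood apart in 5 genes with H3K9M higher and 3 with H3K9M lower, where 10.7% and 8.68% of all tested genes did so.

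Histone genes outside the clusters mostly give ordinary polyadenylated mRNAs, made through the cell cycle, and no difference between the groups passed the test in them. H3f3a had 745.9 to 850.5 CPM in H3K9M and 748.6 to 938.7 CPM in H3WT, and H3f3b 255.7 to 261.8 and 242.9 to 256.6 CPM. Whether transgene reads were counted under these genes is not given. H2afz (H2A.Z) had 134.3, 83.2 and 146.5 CPM in H3K9M and 118.2, 131.8 and 101 CPM in H3WT, and H1f0 (the H1.0 of non-dividing cells) 168 to 227.3 and 172.2 to 214.8 CPM. H2afx, which carries the stem-loop consensus and also makes a polyadenylated form, had 89.2, 50.8 and 93.1 CPM in H3K9M and 94.3, 112 and 73.2 CPM in H3WT. H2afj had 55.7, 68.2 and 41.2 CPM in H3K9M and 33, 43.3 and 46.6 CPM in H3WT, and H2afy (macroH2A) a log2 fold change of -0.12 (SE 0.11). Of 20 listed genes 12 were tested, 0 were called and 0 had an unadjusted p under 0.05, with 7 above and 5 below 0 and a median of 0.05.

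Chaperones, which carry new histones to DNA, gave 0 of 27 called by edgeR, with 1 higher and 3 lower at an unadjusted p under 0.05, where 6.42% of all tested genes were higher and 5.77% lower (median of the list -0.05). Npm1, a nucleolar chaperone, had 743.3, 593.5 and 672.5 CPM in H3K9M and 548.3, 477.7 and 482 CPM in H3WT, all H3K9M libraries above all H3WT libraries (log2 fold change 0.41, SE 0.14, edgeR adjusted p 0.299). Chaf1a, the large subunit of the replication-coupled assembly factor CAF-1, had 64.4, 45.7 and 65.2 CPM against 92, 94.6 and 62.4 CPM (log2 fold change -0.51, SE 0.21, edgeR adjusted p 0.382). Supt6, an elongation factor that handles histones, had a log2 fold change of -0.34 (SE 0.13, edgeR adjusted p 0.363). All its H3K9M libraries lay below all H3WT libraries. Over the whole list, 1 gene had all H3K9M values higher and 4 had all lower, where 10.7% and 8.68% of all tested genes did.

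The histone sums were set beside those of replication and mitosis genes. The 38 genes of DNA replication and S phase summed to 2422, 1793 and 2167 CPM in H3K9M and 2575, 2699 and 1855 CPM in H3WT, and 23 genes of mitosis to 2943, 1728 and 3105 CPM and 3221, 3214 and 1989 CPM. H3WT replicate 2 had the highest histone sum and also the highest replication sum, with the highest Pcna (111.5 CPM) and Rrm2 (306.3 CPM) of all libraries. H3WT replicate 1 had the lowest histone sum, yet its replication sum came next after that of replicate 2. Its mitosis sum was the highest of all libraries, just above that of replicate 2. H3K9M replicate 3 had the lowest sum of both lists and a histone sum within the range of the others. With 6 libraries in 2 groups no correlation is given. Of the 38 replication genes 0 were called by edgeR, 1 higher and 2 lower had an unadjusted p under 0.05, where 6.42% and 5.77% of all tested genes did. Above 0 were 7 and below 0 were 31, where 49.6% of all tested genes were above 0. The median was -0.19, and -0.05 without H3WT replicate 2, when 23 were below 0. Dut, which removes dUTP from the nucleotide pool, had 84.5, 67.5 and 78.2 CPM in H3K9M and 49.6, 49.7 and 26.3 CPM in H3WT (fitted log2 ratio 0.87, SE 0.25, edgeR adjusted p 0.253). Clspn and Uhrf1, a replication checkpoint adaptor and a maintenance factor of DNA methylation at the fork, had log2 fold changes of -0.58 (SE 0.21) and -0.53 (SE 0.20). Pcna, the replication clamp, had 0.01 (SE 0.18) and Rrm2, a ribonucleotide reductase subunit, -0.24 (SE 0.21).

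**Figure D5:**
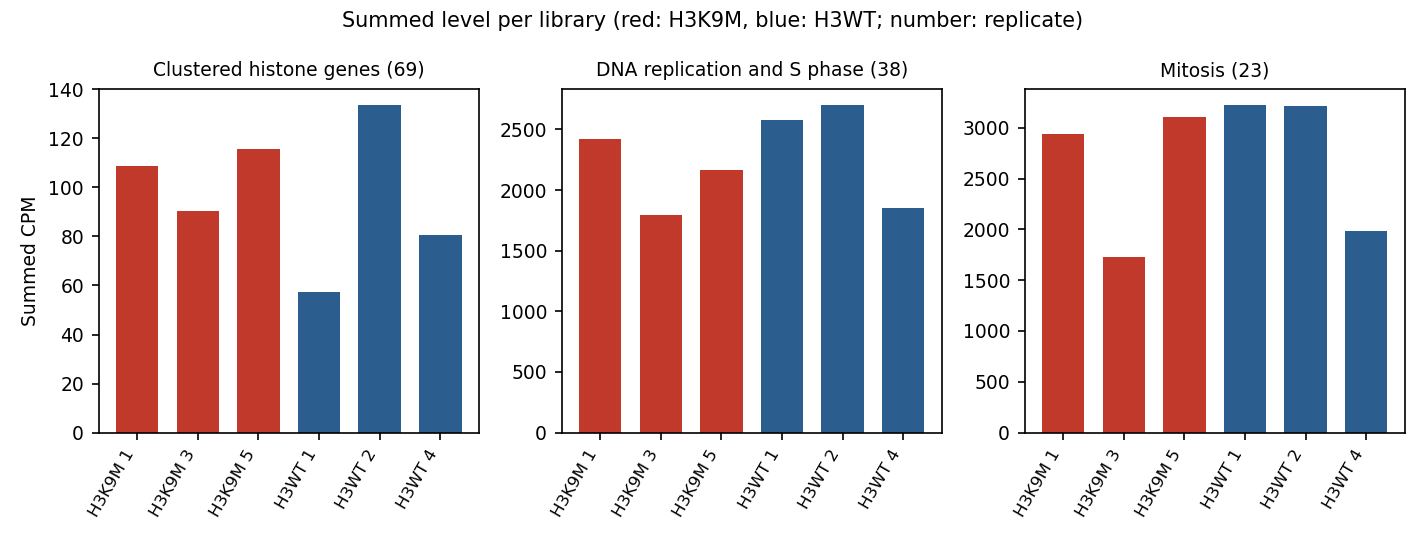
Summed CPM per library (y axes, each from 0) of the 69 clustered histone genes, 38 genes of DNA replication and S phase and 23 genes of mitosis, with H3K9M in red and H3WT in blue and the replicate number on the x axis. H3WT replicate 2 is highest in the histone panel (133.5) and in the replication panel (2699). H3WT replicate 1, lowest in the histone panel (57.4), comes next after it in the replication panel and is highest in the mitosis panel (3221).

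Of the 23 mitosis genes 0 were called and 0 had an unadjusted p under 0.05, with 7 above and 16 below 0. These counts turned with the library left out. They ran from 3 above and 20 below without H3WT replicate 4 to 21 above and 2 below without H3K9M replicate 3. Mki67, the proliferation marker, ranged from 301.6 to 622.6 CPM in H3K9M and from 409.8 to 674.8 CPM in H3WT, and Top2a, Tpx2 and Ccnb1 had log2 fold changes of -0.24, -0.24 and 0.34 with SE of 0.24 to 0.27. Among 20 genes of cell-cycle exit and senescence 0 were called by edgeR, with 1 higher and 2 lower at an unadjusted p under 0.05 (6.42% and 5.77% of all tested genes). Gadd45a, a growth-arrest gene, had 28.3, 41.7 and 29.9 CPM in H3K9M and 10.9, 14 and 16.8 CPM in H3WT (fitted log2 ratio 1.26, SE 0.24, edgeR adjusted p 0.17). Ccnd3 and Cdkn1b, a G1 cyclin and the inhibitor p27, had log2 fold changes of -0.49 (SE 0.17) and -0.62 (SE 0.23). Cdkn1a, the inhibitor p21, had 335.1, 516.8 and 229.4 CPM in H3K9M and 254.8, 243.8 and 276.9 CPM in H3WT, and did not pass (log2 fold change 0.48, SE 0.27).

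The labelled cell type was checked against its markers. All 9 chondrocyte markers passed the filter, with a summed level of 6096 to 9858 CPM in H3K9M and 6030 to 16850 CPM in H3WT, highest in H3WT replicate 2, which was also the highest library for histone reads. All 9 had a log2 fold change below 0 (median -1.03), 1 of them with an unadjusted p under 0.05 (Col9a1, -1.89, SE 0.75) and none past the adjusted threshold in edgeR. Without H3WT replicate 2 the median was -0.23, with 7 below 0. The 7 fibroblast markers, which expanded chondrocytes also express, summed to 11750 to 30150 and 9802 to 34650 CPM. Endothelial markers (5 genes) reached at most 0.825 CPM with Cdh5 and Emcn at 0, and those of macrophages and blood are given beside H2A. In bulk RNA, fewer cells of a type and less RNA per cell cannot be told apart. The part of these differences in the histone values was not tested.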

How the data were processed

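The deposited table gave raw read counts per gene symbol for 6 polyadenylated RNA libraries, 1 column each. Reads were aligned to mm10 with HISAT2 and counted by the authors with featureCounts, per the submitters' processing notes, which also name DESeq2. Versions, annotation, strand and multi-mapping settings are not given in the sources used here. Columns were matched to samples by title, and 0 belonged to other series. No 2 replicates agreed within sampling noise (chi-square per degree of freedom 26.5 to 114.4).

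The fit was made by edgeR 4.0.16 under R 4.3.3 (filterByExpr, TMM, robust quasi-likelihood fit, genotype only, Benjamini-Hochberg over 13761 genes, threshold 0.05). The SE is the log2 fold change divided by the square root of F. The method was tested on simulated counts. A gene at or under 3 counts per library (0.145 to 0.201 CPM) was taken as at the floor. Counts of PCR reads are not independent molecules. With 3 against 3 libraries an exact permutation test of 1 value cannot go below 0.1, so none was run. Alternatives were DESeq2 1.42.0, limma-voom (limma 3.58.1), other scalings, filters and thresholds, and leaving out each library.

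Transcripts, 3′ ends and sequences came from GENCODE M21 and names also from RefSeq GRCm38.p6, and all 69 members matched both. The longest protein-coding transcript stood for each gene.

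Members and lists were chosen with earlier results of these data known. Named members are the 25 with the highest mean CPM and up to 5 tested members with the smallest p in each direction. From each of 6 related lists the 3 genes with the smallest p and 12 preset genes are named.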

Additional observations from a re-analysis of the deposited data

How the results depend on the processing

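The number of members called stayed at 0 with limma-voom, other scalings, other filters, an adjusted p under 0.10 and each library left out, and was 1 (Hist1h2al) with DESeq2. Members above 0 were 42 of 64 with DESeq2 and 42 of 64 with every gene that had a read, 5 of 6 with at least 10 counts in every library, and 10 to 13 of 17 to 19 when a library was left out, since other filters test other numbers of genes. The median log2 fold change of members then ran from 0.13 to 0.72, the latter without H3WT replicate 2. The H2A ratio (log2 0.96) was 0.38 when only members with at least 10 counts in every library, that is Hist3h2a, were summed, and no H3 member could be summed that way. DESeq2 called 1 replication gene (Dut, adjusted p 0.0486) and 1 gene of cell-cycle exit (Gadd45a, 0.00146), and edgeR on every gene with a read also called 1 of the latter (Gadd45a, 0.0336). The cause was not tested.

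Signs turned in these log2 fold changes, none past a threshold. Hist1h3d was 0.24 and Hist2h2be 0.41 with limma-voom, and Hist2h2be 0.012 with library size alone. With each library left out, values ran from -0.21 to 0.55 (Hist1h4i), -0.047 to 1.79 (Hist1h4h), -0.97 to 1.13 (Hist1h3d), -0.44 to 0.56 (Hist1h1e), -0.67 to 0.37 (Hist1h1c), -0.52 to 0.83 (Hist2h2be), -0.050 to 0.17 (H1f0), -0.10 to 0.27 (H2afz), -0.14 to 0.029 (H3f3a), -0.44 to 0.028 (Mki67) and -0.10 to 0.19 (Pcna). Most members lie near the floor, where differences were not detectable at this depth.

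No paired analysis was possible because the groups share only 1 replicate number.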
